A study of Mus musculus with 4 samples.

Results

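The Schlafen genes (Slfn) and the Ifi200 genes (Ifi202b, Ifi203, Ifi204, Ifi205 and their relatives) are 2 mouse gene families that are known as interferon-stimulated in macrophages. Here 10 of their genes were followed, Slfn1, Slfn2, Slfn3, Slfn4, Slfn5, Slfn8, Ifi202b, Ifi203, Ifi204 and Ifi205, by every probe whose annotated symbol, current or older, was 1 of these names. They are 10 of the 21946 genes with a named probe and have 15 of the 45281 probes on the array, 6 for the 6 Schlafen genes and 9 for the 4 Ifi200 genes. In cells given lipopolysaccharide (LPS), 5 of the 10 genes rose on at least 1 probe, where 13.5% of all tested probes were called higher and 19% lower, with the largest change at Ifi202b, 4.00 on the log2 scale. Of these 5 genes, Slfn4 passed the test in 6 of 13 other settings only. The 6 include the fits with either LPS array left out, whose p adds no support. No probe of these 10 genes fell. The other 5 genes did not pass the test or were too dim to be tested.

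RAW G9 cells were used, a single clone of the macrophage line RAW264.7 that carries 2 reporters, GFP-RelA driven by the Rela promoter and mCherry-PEST driven by the Tnf promoter. The sample labels name only the parent line, which was derived from a BALB/c mouse. There were 2 arrays of cells given LPS of Salmonella minnesota at 10 ng/ml for 4 h and 2 arrays of untreated cells with no LPS, described in the methods as biological duplicates. The labels give 0 h for the untreated cells, while the methods give the same 4 h for both conditions. The untreated cells were on 1 slide and each LPS array was on a slide of its own, so slide and LPS cannot be told apart in any of the comparisons. All measurements are of bulk RNA, so more cells that express a gene cannot be told apart from more RNA per cell.

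Both families are known from macrophages and lymphocytes. LPS binds TLR4, and 1 arm of the signal, through the adaptor TRIF and the factor IRF3, leads to interferon beta. Secreted interferon then acts on its receptor, and STAT and IRF factors bind the promoters of interferon-stimulated genes. Schlafen proteins share an N-terminal domain that is linked to the handling of RNA and to growth control. The short ones (Slfn1, Slfn2) consist of little else, Slfn3 and Slfn4 are longer, and Slfn5 and Slfn8 also carry a helicase-like part. Ifi200 proteins, also called PYHIN proteins, carry HIN domains that bind DNA and mostly a pyrin domain for contact with other proteins.

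The array gives each probe an average bead signal, in array units on a linear scale, and a detection p that compares it with negative-control probes of the same array. A probe was called detected in a condition when its detection p was under 0.1 on both arrays. Median signals were 104 and 105 on the LPS arrays and 118 and 114 on the untreated arrays, so raw signals close to these values are not comparable between conditions. Signals were therefore background-corrected and quantile normalized to log2 before testing. Each array detected between 16380 and 17892 probes. The median absolute difference between arrays, on the log2 scale, was 0.203 for LPS and 0.105 for untreated cells. Of 10 macrophage markers 8 were detected, while no measured T cell, B cell, dendritic cell or fibroblast marker was, and 1 of 4 measured neutrophil markers, Elane, was. Over all tested probes the median log2 change, LPS minus untreated, was -0.07.

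Of the 15 probes, 7 were detected in cells given LPS, where 33.1% of all probes were detected. In untreated cells 3 were detected, against 36% of all probes. The 3 were the Slfn2 probe and 2 of the 3 Ifi202b probes, which were detected on all 4 arrays. The rule for testing was detection in at least 1 condition, and 17211 probes met it, 7 of them from these families. Of these 7, 6 were higher with LPS and 0 were lower at an adjusted p under 0.05 (limma, Benjamini-Hochberg over all tested probes), where 13.5% of all tested probes were called higher and 19% lower. Of the 7, 4 entered the test through the LPS arrays alone, which favours a higher value there. The count of 6 of 7 therefore does not weigh equally for all. The 3 probes detected in both conditions were all among the 6. With no filter on detection, all 15 probes could be tested, and 5 of them were higher, beside 4.11% of all probes. The median log2 change of the 15 was then 0.18, beside -0.0013 over all probes.

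**Figure D1:**
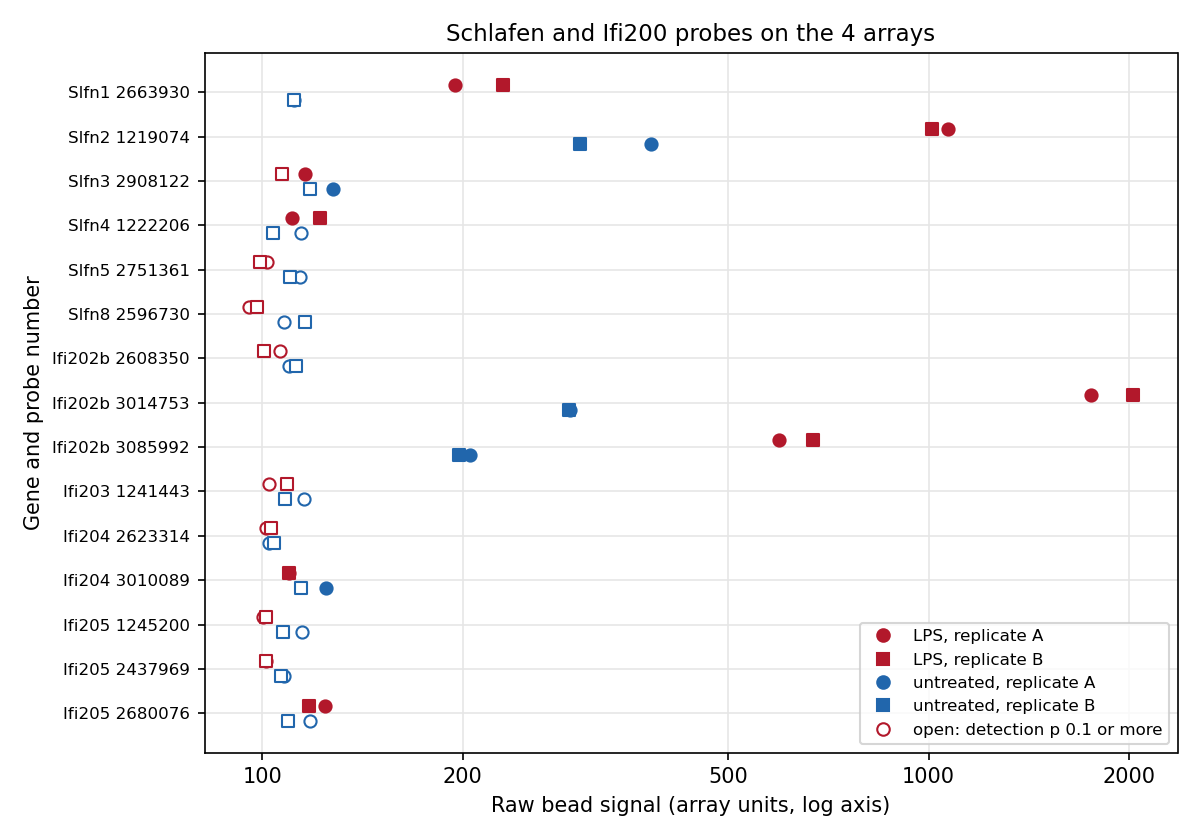
Raw bead signal (log axis, array units) of the 15 Schlafen and Ifi200 probes on each of the 4 arrays, with red for LPS, blue for untreated, circles for replicate A and squares for replicate B. Filled points have a detection p under 0.1. Slfn1, Slfn2 and 2 of the 3 Ifi202b probes stand clear of the other probes with LPS, and the remaining 11 probes lie between 95.4 and 128 on all arrays.

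Slfn2, Slfn1 and Slfn4 were the Schlafen genes that rose. Slfn2 is known for keeping T cells and monocytes quiescent. Its probe, ILMN_1219074, had signals of 1069 and 1011 in cells given LPS and 383 and 299 in untreated cells. Both LPS arrays lay far above both untreated arrays. The log2 values were 10.31 and 10.39 against 7.58 and 7.45, which is 2.84 higher with LPS, with a standard error of 0.13 (95% interval 2.52 to 3.15, adjusted p = 1.09e-05 from limma), or 7.14-fold.

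Slfn1, another short Schlafen gene, is known for restraining the growth of thymocytes. Its probe, ILMN_2663930, had signals of 195 and 230 with LPS, both detected, and 112 and 111 in untreated cells, neither detected. With log2 values of 7.22 and 7.86 against 4.29 and 4.35 the change was 3.22 (standard error 0.21, adjusted p = 5.40e-05 from limma). Since the untreated level is only bounded, the change on this scale is better given as at least 7.83-fold. As the untreated level on each array, the higher of its own value and the lowest value of any detected probe was taken. Such bounds, here and below, hold for the main background correction and scaling only. The LPS arrays differed by more than the untreated ones. The size depends on the background step: without it the log2 change was 1.39, with an offset of 50 it was 2.03, and in the deposited log2 table it was 1.28, all past the threshold.

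Slfn4, a gene of macrophages that is known to respond to interferon, gave the smallest rise. Probe ILMN_1222206 had signals of 111 and 122 with LPS and 114 and 104 in untreated cells, so the raw signals overlapped. It was detected on both LPS arrays (detection p 0.0449 and 0.0021) and on neither untreated array (0.417 and 0.949). After normalization the log2 values, 4.78 and 5.62 against 4.34 and 4.21, did not overlap, and the change was 0.92 (standard error 0.26, adjusted p = 0.0316 from limma), or at least 1.55-fold. This call did not hold throughout. The adjusted p was 0.0785 without background correction, 0.083 in the deposited table, 0.0941 with an offset of 50, 0.183 with no filter and 0.074 with slide as a random block. Without background correction, with the offset of 50 and in the deposited table the log2 change was 0.32, 0.42 and 0.29. With untreated replicate A or B left out, the adjusted p was 0.105 or 0.163. The LPS arrays also set the size, with a log2 change of 1.42 when LPS replicate A was left out and 0.55 when B was. Each of these sets 1 LPS array against 2 untreated arrays, whose spread the lone array is assumed to share, so that its p adds no support.

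The other 3 Schlafen genes were not tested, because their probes were detected on both arrays of neither condition. Slfn3 is known from T cells and the gut. Its probe, ILMN_2908122, had signals of 116 and 107 with LPS and 128 and 118 in untreated cells, and was detected on 1 array of each condition. The arrays of the conditions overlapped. Slfn5, whose human counterpart is also induced by interferon, had signals of 102 and 99.3 with LPS and 114 and 110.2 in untreated cells, all at background. Slfn8 had 95.4 and 98.3 with LPS and 108 and 116 in untreated cells, also not detected on any array. With no filter, the log2 changes were 0.19 for Slfn3, -0.03 for Slfn5 and -0.13 for Slfn8, none past the threshold (adjusted p = 0.798, 0.899 and 0.651 from limma). At this depth of signal a change below background was not detectable, which does not show that these genes were silent.

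The promoters of the 3 Schlafen genes that rose are shown because a common stretch stands in all of them. Each window is 300 bases of RefSeq sequence, build GRCm38.p6, most of them before the start of transcription. They lie on the plus strand at chr11:83064862-83065161 (Slfn2), chr11:83116570-83116869 (Slfn1) and chr11:83174936-83175235 (Slfn4). Capitals mark the longest run of letters that these windows share.
Slfn2: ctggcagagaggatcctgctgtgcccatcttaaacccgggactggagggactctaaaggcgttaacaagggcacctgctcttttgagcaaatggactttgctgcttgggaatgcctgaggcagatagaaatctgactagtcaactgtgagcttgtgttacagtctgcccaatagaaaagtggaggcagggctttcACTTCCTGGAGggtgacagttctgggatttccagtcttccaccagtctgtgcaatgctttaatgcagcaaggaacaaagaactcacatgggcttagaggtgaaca
Slfn1: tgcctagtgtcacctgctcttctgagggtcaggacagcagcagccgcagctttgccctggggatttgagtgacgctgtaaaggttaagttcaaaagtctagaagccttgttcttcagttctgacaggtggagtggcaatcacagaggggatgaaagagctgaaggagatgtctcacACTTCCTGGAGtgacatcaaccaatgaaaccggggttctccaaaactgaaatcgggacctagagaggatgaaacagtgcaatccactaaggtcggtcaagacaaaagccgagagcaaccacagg
Slfn4: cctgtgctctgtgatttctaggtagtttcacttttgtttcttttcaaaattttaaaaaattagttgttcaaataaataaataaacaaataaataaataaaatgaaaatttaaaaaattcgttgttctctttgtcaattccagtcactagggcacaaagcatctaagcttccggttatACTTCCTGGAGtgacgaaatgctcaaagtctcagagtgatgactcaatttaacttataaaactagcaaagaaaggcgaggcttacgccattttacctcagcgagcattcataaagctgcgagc
The shared run, ACTTCCTGGAG, has 11 bases and holds, on the opposite strand, the GGAA core that ETS factors such as PU.1 bind. It was found by reading the windows after the changes were known, and it was then searched on both strands. It begins at position -55 in Slfn2, -74 in Slfn1 and -73 in Slfn4, counted from the start of transcription as 0. Of 32851 promoter windows of the same length 24 hold it, 0.0731%, and of the 9 listed genes with a window only these 3 do. The window of the untested gene Slfn3 holds acttcctgggg, which differs from the run in 1 base and keeps the GGAA core. The 3 genes are close relatives that lie side by side, so the run is a description and was not tested. No match to GAAANNGAA, the core of the interferon-stimulated response element (ISRE), or to TTCNNNGAA, the gamma-activated site (GAS), was found in these 3 windows. The Slfn1 window holds 1 match to the NF-kB consensus, at positions -43 to -34, outside the shared run.

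The Slfn5 window, chr11:82951852-82952151 on the plus strand, is shown for contrast, since it belongs to a gene that was not detected on any array and holds 2 matches to the ISRE core, in capitals.
Slfn5: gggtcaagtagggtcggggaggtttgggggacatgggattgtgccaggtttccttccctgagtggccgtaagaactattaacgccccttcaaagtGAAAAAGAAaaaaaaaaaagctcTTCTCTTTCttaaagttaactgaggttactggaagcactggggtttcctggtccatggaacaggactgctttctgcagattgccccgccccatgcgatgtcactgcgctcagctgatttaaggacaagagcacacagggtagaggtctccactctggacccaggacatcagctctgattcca
The matches begin at -155 and -132. Slfn8 also has 1 such match in its promoter, at -47 in 1 of its 2 overlapping windows and at -135 in the other. The ISRE core stood in 8.56% of all windows, the GAS motif in 8.3% and the NF-kB consensus in 8.46%, on either strand. Of the 9 listed genes with a window, 4 held the ISRE core (Slfn5, Slfn8, Ifi203 and Ifi205), 1 the GAS motif and 2 the NF-kB consensus. Matches to different motifs did not overlap in these windows. The reference genome is that of C57BL/6J, another strain than that of the cells, and strain differences were not examined. The Slfn3 window held no match to the ISRE core, the GAS motif or the NF-kB consensus.

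Among the Ifi200 genes, Ifi202b rose most and Ifi205 rose less. Ifi202b encodes p202, a protein with HIN domains and no pyrin domain that is known to hold back the AIM2 inflammasome. Probe ILMN_3014753 had signals of 1752 and 2029 in cells given LPS and 289 on both arrays of untreated cells. On this probe each LPS array lay far above both untreated arrays. Its log2 values were 11.03 and 11.35 against 7.01 and 7.38, which is 4.00 higher with LPS, with a standard error of 0.18 (95% interval 3.57 to 4.42, adjusted p = 9.09e-06 from limma). A second probe of the same RefSeq transcript, ILMN_3085992, had 596 and 671 with LPS and 205 and 197 in untreated cells. Here too the conditions did not overlap, and the rise in log2 signal was 3.26 ± 0.18 (standard error), or 9.59-fold (limma, adjusted p = 2.03e-05). The sizes depend on the processing. For ILMN_3085992 the log2 change was 2.33 without background correction, 2.25 in the deposited table and 2.49 with median scaling. For ILMN_3014753 it was 3.35, 3.34 and 3.33 in the same settings. All were past the threshold. The third probe, ILMN_2608350, is annotated to another RefSeq transcript of the gene and was not detected on any array, with signals of 106 and 100.5 with LPS and 109.9 and 112 in untreated cells. Its unfiltered log2 change was 0.08 (adjusted p = 0.827 from limma).

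Ifi205 encodes p205, which is known to control expression of the inflammasome adaptor ASC in mouse macrophages. Of its 3 probes 1 was detected. Probe ILMN_2680076 had signals of 124 and 118 with LPS, both detected, and 118 and 109 in untreated cells, neither detected. Raw signals met at 118, and after normalization the log2 values were 5.58 and 5.33 against 4.42 and 4.30. The conditions did not overlap on that scale, and the change was 1.10 (standard error 0.15, adjusted p = 0.00155 from limma), or at least 1.85-fold. Its size also depends on the background step, since the log2 change was 0.33 without it, 0.51 with an offset of 50 and 0.30 in the deposited table, each past the threshold. The other probes, ILMN_1245200 and ILMN_2437969, were not detected on any array and had unfiltered log2 changes of -0.01 and 0.07, so the rise of Ifi205 rests on 1 dim probe.

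Ifi204, often likened to human IFI16 as a sensor of cytosolic DNA, has a probe close to the limit of detection. Probe ILMN_3010089 had signals of 109.7 and 109.5 with LPS, both detected, and 124.5 and 114 in untreated cells, of which 1 was detected. The log2 change was 0.18 (95% interval -0.14 to 0.50, adjusted p = 0.345 from limma) and did not pass. Its other probe, ILMN_2623314, was not detected on any array, with signals between 101 and 104. Ifi203, which encodes a further HIN protein, had signals of 102 and 109 with LPS and 116 and 108 in untreated cells, with no array detected. Its unfiltered log2 change was 0.18 (adjusted p = 0.563 from limma).

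The promoters of the 2 Ifi200 genes that rose are shown with their matches to the ISRE core or GAS motif in capitals. They lie on the minus strand at chr1:173982795-173983094 (Ifi202b) and chr1:174031706-174032005 (Ifi205).
Ifi202b: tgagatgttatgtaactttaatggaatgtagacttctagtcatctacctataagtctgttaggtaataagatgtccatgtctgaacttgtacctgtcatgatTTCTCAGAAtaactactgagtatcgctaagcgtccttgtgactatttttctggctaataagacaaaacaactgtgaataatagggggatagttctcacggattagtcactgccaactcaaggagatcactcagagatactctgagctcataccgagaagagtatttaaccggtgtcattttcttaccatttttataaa
Ifi205: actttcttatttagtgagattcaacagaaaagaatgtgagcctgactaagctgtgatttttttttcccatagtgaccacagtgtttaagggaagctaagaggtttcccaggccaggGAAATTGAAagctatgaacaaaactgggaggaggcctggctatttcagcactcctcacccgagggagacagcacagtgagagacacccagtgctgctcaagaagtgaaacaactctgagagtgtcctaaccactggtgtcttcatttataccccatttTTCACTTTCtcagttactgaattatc
Ifi202b, with the largest change, has 1 GAS match, at positions -148 to -140, and no ISRE core match. Ifi205 has 2 ISRE core matches, at -134 and at 24, the latter after the start of transcription. The first of them runs into gaaagctatgaaca, a stretch of 14 bases that stands also in 1 of the 2 windows of Ifi203, beside its ISRE core match at -35. The probe of Ifi203 was not detected with LPS, and 1 of the 3 Ifi205 probes was. No window was used for Ifi204.

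**Figure D2:**
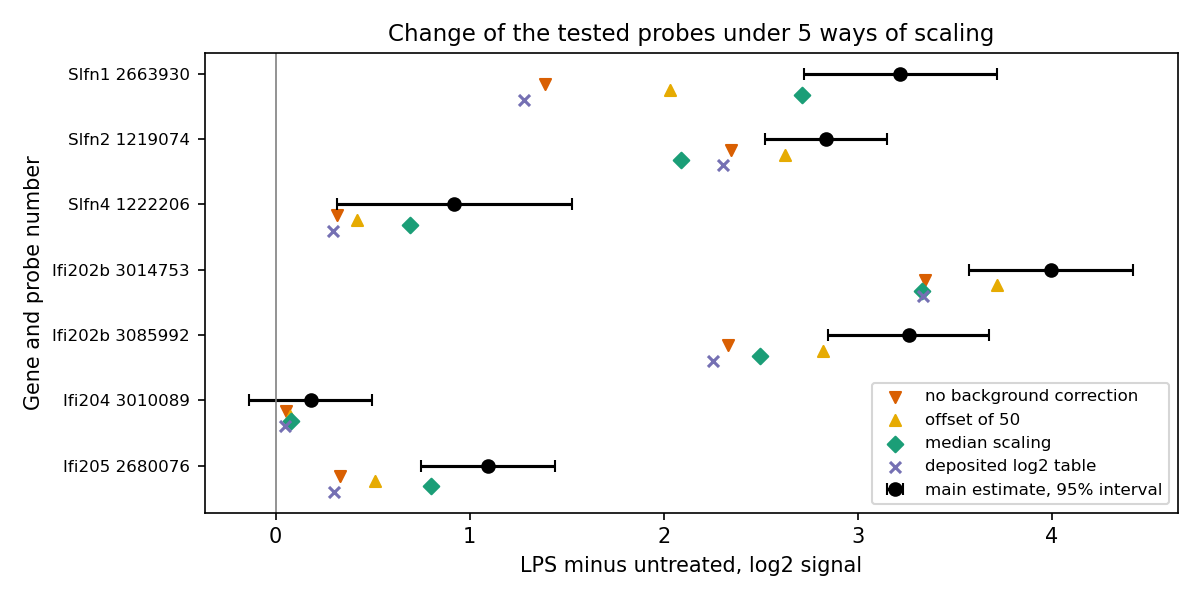
Log2 change, LPS minus untreated, of the 7 tested probes, with black points for the main estimate and its 95% interval (2 arrays per condition) and coloured marks for 4 other ways of scaling. All marks lie above 0, and Slfn1 moves from 3.22 in the main estimate to 1.28 in the deposited table.

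The direction of the 7 tested probes was the same under each scaling tried. Median scaling in place of quantile normalization moved the median of all tested probes from -0.07 to -0.62. Relative to that median, the change of Ifi202b (ILMN_3014753) was 4.07 in the main analysis and 3.95 with median scaling, that of Slfn1 was 3.29 and 3.33, and that of Slfn2 was 2.91 and 2.71. For Slfn4 it was 0.99 and 1.31. Between 28 and 66 beads stood behind each member's signal on an array, and the standard error over beads was 1.6% to 4.72% of the signal.

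The remaining genes of both families were looked at in the same fit. Of 17 such genes, 11 had 20 probes, and 9 probes of 7 genes were tested. Of these 9 probes, 7 were higher, none was lower (limma, adjusted p under 0.05, beside 13.5% and 19% of all tested probes), and 4 had entered through LPS alone. By the brightest tested probe, 5 of the 7 genes were higher. Mndal rose by 2.24, Ifi207 by 1.97 and Aim2, which builds the inflammasome on cytosolic DNA, by 1.36 and 1.46 on its 2 probes (adjusted p = 2.53e-05, 8.88e-05, 0.00181 and 0.000221 from limma). These probes were detected on all 4 arrays. Ifi207 had the signals 7082 and 6340 with LPS and 3029 and 2174 in untreated cells, and Mndal had 349 and 309 against 208 and 184. Neither overlapped between conditions. With median scaling the log2 change was 1.39 for Mndal, 1.53 for Ifi207 and 0.49 and 0.60 for Aim2, where the median of all tested probes was -0.62. In the deposited table it was 1.35 for Mndal, 1.98 for Ifi207 and 0.94 and 0.91 for Aim2. All of these were past the threshold. The other Mndal probe, ILMN_1226619, was not detected on any array. Ifi214 was detected with LPS alone, on 1 of its 3 probes. That probe was at least 5.44-fold higher with the main background correction and scaling. Its log2 change was 2.76 there and 2.26 with median scaling. It was 1.01 in the deposited table, 1.10 without background correction and 1.62 with an offset of 50. For Ifi213 the dimmer probe rose by 1.26 (adjusted p = 0.00101 from limma), while the brighter one had a log2 change of 0.42 (adjusted p = 0.114). The dimmer probe was detected with LPS alone, and its size depends on the processing. Its log2 change was 0.35 in the deposited table, 0.38 without background correction, 0.61 with an offset of 50 and 0.92 with median scaling. Slfn10-ps, a pseudogene, rose by 0.48 on 1 of 3 probes (adjusted p = 0.0308 from limma), and Slfn9 had 0.34 (adjusted p = 0.0895). The Slfn10-ps call was lost in each of the 4 other scalings (adjusted p of 0.102 to 0.114 from limma). With median scaling the brighter Ifi213 probe had a log2 change of -0.46 (adjusted p = 0.0466 from limma), where the median of all tested probes was -0.62. Slfn14, Slfnl1, Ifi209 and Ifi211 were too dim to be tested. Mndal is an older synonym of Ifi203, but its probes carry their own gene identifier and were kept apart.

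Both families lie in clusters, the Schlafen genes on chromosome 11 and the Ifi200 genes on chromosome 1. In the order of GRCm38.p6 the 3 Schlafen genes that rose, Slfn2, Slfn1 and Slfn4, follow each other directly among the family's genes. Slfn5, Slfn9 and Slfn8 on 1 side and Slfn3 and Slfn14 on the other did not pass or were not tested, and Slfn10-ps next to Slfn2 passed in the main analysis alone among 5 scalings. In the other cluster Ifi202b and Ifi205 are neighbours at 1 end, and over the rest genes that rose stand among genes that did not pass, were not tested or had no probe named. Probes of close relatives, such as Slfn3 and Slfn4, Ifi203 and Mndal or Ifi205 and Ifi211, may share signal, as may the copies of Ifi202, and this was not tested.

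**Figure D3:**
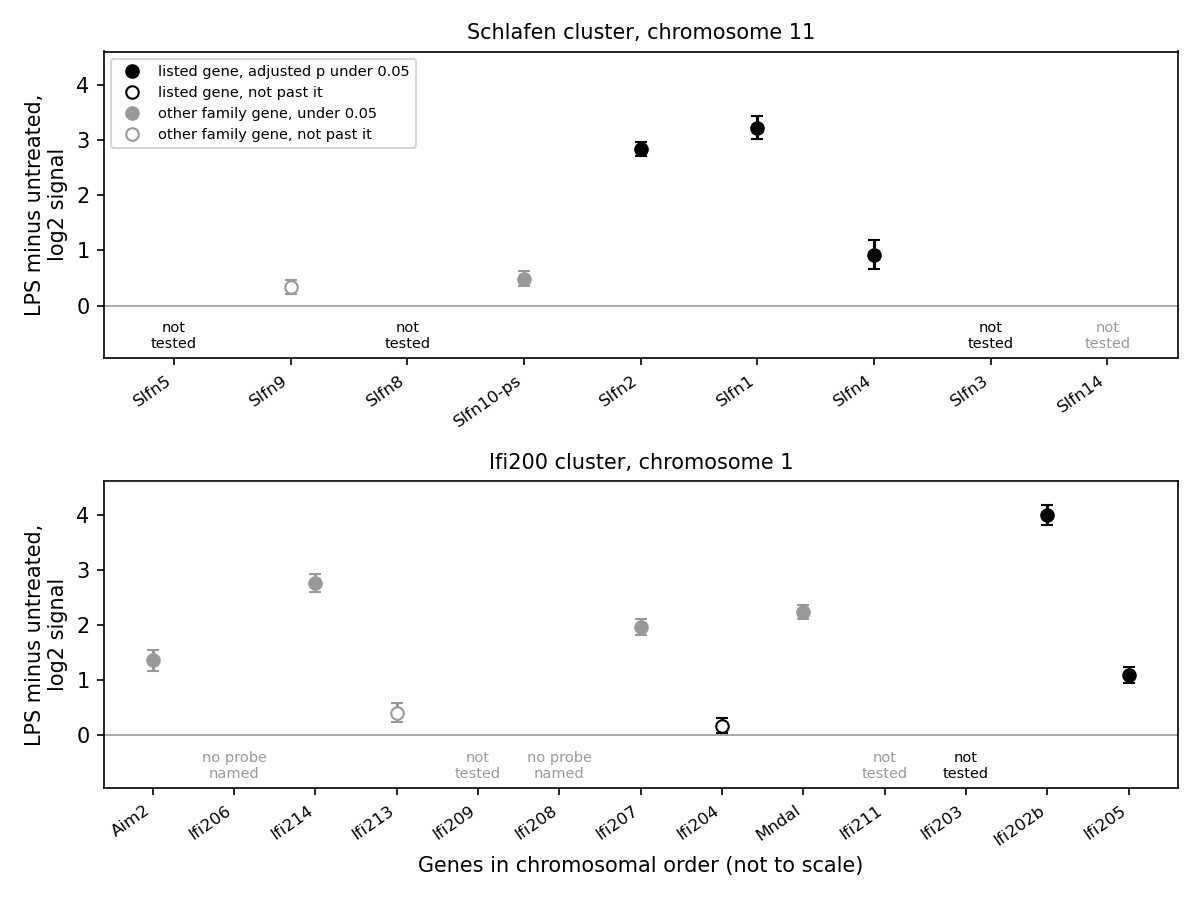
Log2 change, LPS minus untreated, with its standard error (2 arrays per condition), of the brightest tested probe of each gene, with genes in chromosomal order and not to scale. Black marks the 10 listed genes, grey the rest of both families, filled points an adjusted p under 0.05, and genes below the line were not tested or had no probe named. Slfn2, Slfn1 and Slfn4 stand together, and Ifi202b reaches 4.00.

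The route from TLR4 to interferon-stimulated transcription was followed by a list of 15 genes, of which 13 were tested. By the brightest tested probe, 8 of them rose, 2 fell and 3 did not pass, where 13.5% of all tested probes were called higher and 19% lower. Of the 12 that were detected in both conditions, 7 rose and 2 fell. Ifnb1, the gene of interferon beta, had signals of 372 and 482 with LPS and 114 and 109, not detected, in untreated cells. With the main background correction and scaling it was at least 20.9-fold higher with LPS (adjusted p = 1.03e-05 from limma). Its log2 change was 4.64 there and 4.15 with median scaling. It was 2.33 in the deposited table, 2.47 without background correction and 3.30 with an offset of 50. Stat2, which joins Irf9 in the factor that binds the ISRE, had 388 and 368 against 160 and 146, and a log2 change of 3.25 (adjusted p = 6.2e-06). Irf7, the interferon-induced amplifier of the response, had 862 and 732 against 303 and 229, a log2 change of 2.99 (adjusted p = 1.15e-05). Irf9 rose less, by 1.08 and 0.90 on its 2 probes. The genes that fell or did not pass are named after their values were seen. Tlr4, the receptor of LPS, had a log2 change of -0.73 by its brightest probe and its adaptor gene Ticam2 -0.67 (adjusted p = 0.00692 and 0.00993 from limma). Irf3 had 0.10, the interferon receptor gene Ifnar2 -0.28 and the kinase gene Jak1 -0.07, none past the threshold (adjusted p = 0.618, 0.17 and 0.702). Ifnb1, Stat2, Irf7 and Irf9 did not overlap between conditions after normalization. Of 4 partners of PYHIN proteins in the sensing of cytosolic DNA, 3 were tested, again beside 13.5% of all probes called higher and 19% lower. Cgas, the sensor that makes the messenger for STING, rose by 0.86 and Casp1, the inflammasome protease gene, by 0.59 (adjusted p = 0.00315 and 0.0288 from limma), and Sting1 stood at -0.04 (adjusted p = 0.849). With no filter on detection, 1 of the 6 probes of this list was higher, beside 4.11% of all probes. These 3 genes, too, are named after their values were seen. Median scaling was chosen after seeing the data as a check for these lists. It left 5 genes of the route higher, 4 lower and 4 not passed. Of the DNA-sensing partners 0 were higher and 1, Sting1, was lower. Under this scaling 819 of all 17211 tested probes were called higher and 10095 lower, with a median log2 change of -0.62. The calls of Irf9 (log2 change 0.27 and 0.02), Cgas (0.32) and Casp1 (0.01) were lost. So were those of Tbk1 (0.21) and of the brightest Tyk2 probe (-0.09). These values all lie above the median of -0.62. Irf3, at -0.58, and Sting1, at -0.57, were called lower but lie close to that median. Ifnar2, at -1.07 by its brightest probe, was also called lower (adjusted p = 0.000321 from limma) and lies below that median. The calls of Ifnb1, Stat2, Irf7, Tlr4 and Ticam2 were kept.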

How the data were processed

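RNA of RAW G9 cells was hybridised to Illumina MouseWG-6 bead arrays. The authors extracted the signal intensity and the detection p-value of each probe with GenomeStudio 2011.1, and the deposited intensity is linear and not background-subtracted. The deposited table of log2 values was quantile normalized by the authors, with its target and offset not given in the sources used here. It served as an alternative.

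Probes were named from the platform annotation, updated through RefSeq (GRCm38.p6), which was used for names, gene order and promoter windows. Signals were corrected and normalized by the neqc function (limma 3.58.1 in R 4.3.3), which added an offset of 16 and took its control level from the detection p-values. The 17211 probes with detection in 1 condition or both were tested with lmFit and eBayes on all 4 arrays, with Benjamini-Hochberg adjustment and a threshold of 0.05. The procedure was tested on simulated data. The number of arrays limits the precision.

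All probes of the listed genes are named. Of the 2 pathway lists, the rule names Ifnb1, Stat2, Irf9 and Irf7, and the other genes named were chosen after their values were seen. The members and lists were chosen with earlier results of these data known. The shared promoter runs were looked for afterwards. Alternatives were other background, scaling, offset, filter, slide, replicate and variance settings, and leaving out each array. Protein sequences and probe sequences were not used here.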

Additional observations from a re-analysis of the deposited data

How the results depend on the processing

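The count of Schlafen and Ifi200 probes higher with LPS was 6 in the main analysis and stayed between 5 and 7 under the 14 alternatives, and the count lower was 0 throughout. It was 5 without background correction, in the deposited table, with an offset of 50, with no filter, at a detection p under 0.01 and with slide as a random block, a setting chosen after seeing the data; the probe lost was that of Slfn4 each time. Leaving out each array gave 5 to 7, the 7 including Slfn3 (log2 change 0.54, adjusted p = 0.00884 from limma) without LPS replicate B. That p rests on 1 LPS array, which is assumed to vary like the untreated pair, and with both LPS arrays the log2 change was 0.19 (adjusted p = 0.552 with detection on either array and 0.798 with no filter). The probes of Slfn1, Slfn2, Ifi202b and Ifi205 that were called passed in all 14 alternatives, with an adjusted p of at most 0.0311, and Ifi204 passed in none of the 13 that tested it. The number of probes detected in untreated cells was 3 and became 5 with detection on either array, and it was 3 to 5 when an untreated array was left out. With LPS it was 5 to 8.

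Over all probes, 2332 were higher and 3273 lower. These became 819 and 10095 with median scaling, so that 7.5% of calls in place of 41.6% were higher. With slide as a random block, by moments, they were 1223 and 1312. Leaving out LPS replicate A gave 4032 higher and 4776 lower, and leaving out LPS replicate B gave 3941 and 4859. Leaving out untreated replicate A gave 1106 and 1085, and untreated replicate B 1085 and 1013. The cause was not tested. Neither the labels nor the methods tie same-lettered arrays to a shared culture or day. Their deviations from the group means had a correlation of 0.145, and 2 pairs are too few to call them paired. With the replicate block 6 member probes were higher, and 2639 probes in all were higher and 3689 lower. The slide block by duplicateCorrelation gave no estimate for 4 arrays. The correlation by moments, 0.735, was taken instead from the variance within the LPS arrays and within the untreated arrays. It therefore cannot be told apart from a difference in spread between the conditions. Signal over background is the limit for 12 of the 15 probes, which were not detected in untreated cells.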
